A study of Mus musculus with 6 samples.

Results

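The B cell genes Ms4a1, Cd79a, Cd79b, Cr2, Fcer2a, Pax5, Blk and Cxcr5 and the B cell attracting chemokine gene Cxcl13 were described in mammary tumours of mice with the PyMT transgene, the middle T oncogene of polyoma virus. Each gene was represented by the probe set to which the platform annotation gives that 1 symbol and which had the highest mean over the 6 arrays. All 9 genes were found, among 22180 genes with a symbol. The genes were selected on their single-tumour values and genotype differences on these same arrays, so these values are descriptions and carry no test. The samples were 3 tumours of the genotype PyMT+ SG-/-, without the proteoglycan serglycin (SG), and 3 of the genotype PyMT+ SG+/-, with 1 intact copy. Every mouse carried the transgene, and no tumour of a mouse with both serglycin copies is among the samples. Each array holds RNA of 1 whole, snap-frozen tumour, with its tumour cells and the blood, immune and stromal cells in it. The sources used here give neither the promoter of the transgene nor the age of the mice, nor whether littermates were used.

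B cells recognise antigen through a surface immunoglobulin whose signal is passed on by the CD79A and CD79B chains. They reach follicles of lymphoid tissue by following CXCL13, which is made there mainly by stromal and follicular dendritic cells, through the receptor CXCR5. In inflamed tissue and tumours, macrophages and some T cells can also make CXCL13, and local gatherings of B and T cells can form around it.

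Promoter sequences from RefSeq on the mouse assembly GRCm38.p6 were used for 5 of the 9 genes (Cr2, Pax5, Cxcl13, Cd79a and Fcer2a). The 3 shown are those of the chemokine and of a pair of B cell genes, since Cxcl13 was highest in a different tumour from Cd79a and Fcer2a. All 3 hold a motif match, and Pax5, highest in the same tumour as Cd79a and Fcer2a, is not shown. Each runs over the 250 bases before the start of transcription, 5′ to 3′. Capitals mark a TATAAA box in Cxcl13 (chr5:95956689-95956938, plus strand) and in Fcer2a (chr8:3694175-3694424, minus strand, the first listed of its starts), and a match to the ETS factor motif CNGGAAGT in Cd79a (chr7:24897247-24897496, plus strand).
Cxcl13: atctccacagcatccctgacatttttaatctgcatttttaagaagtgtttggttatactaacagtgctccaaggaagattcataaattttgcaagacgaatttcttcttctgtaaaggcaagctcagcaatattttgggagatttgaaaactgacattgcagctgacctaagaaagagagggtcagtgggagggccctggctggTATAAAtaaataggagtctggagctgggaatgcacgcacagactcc
Cd79a: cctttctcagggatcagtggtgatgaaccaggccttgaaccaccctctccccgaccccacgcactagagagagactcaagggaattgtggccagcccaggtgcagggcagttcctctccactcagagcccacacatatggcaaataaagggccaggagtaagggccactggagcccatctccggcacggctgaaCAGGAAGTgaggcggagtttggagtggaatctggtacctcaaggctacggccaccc
Fcer2a: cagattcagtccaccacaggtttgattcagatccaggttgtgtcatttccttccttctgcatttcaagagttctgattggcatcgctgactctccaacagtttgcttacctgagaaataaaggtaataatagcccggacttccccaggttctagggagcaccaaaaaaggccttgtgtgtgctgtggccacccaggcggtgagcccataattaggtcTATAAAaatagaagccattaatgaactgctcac
The TATAAA of Cxcl13 lay at positions -46 to -41 and that of Fcer2a at -33 to -28, counted back from the start. The ETS match of Cd79a was CAGGAAGT at -56 to -49. Cr2 held an ETS match on the opposite strand. The Pax5 window and those at the other listed Fcer2a starts held none of the 4 motifs searched on both strands. Of 32851 mouse windows of this length, 12.4% held TATAAA, 7.58% CNGGAAGT, 1.60% the octamer ATGCAAAT and 4.98% the NF-kB motif GGGNNTTCC. None of the windows of these 5 genes held the octamer or the NF-kB motif. The GC content was 42.0% in the Cxcl13 window and 58.8% in those of Cd79a and Pax5, with a median of 52.4% over all windows. These matches are letters in a window and show no binding.

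Expression is given as log2 values after robust multi-array averaging, so that a difference of 1 is a doubling, and all differences are SG-/- minus SG+/-. Where 3 values are listed for a genotype, they are those of its replicates 1, 2 and 3 in that order, a numbering that carries no ranking. Serglycin expression (Srgn) matched the labels, at 6.76, 6.43 and 6.35 in the SG+/- tumours against 5.07, 5.04 and 4.89 in the SG-/- tumours. The position of the Srgn probe set relative to the deleted stretch is not given in the sources. Over all genes, limma called 0 of 22180 (0%) at a Benjamini-Hochberg adjusted p under 0.05. At an unadjusted p under 0.05 it gave 317 genes higher in SG-/- (1.43%) and 152 lower, whereas the series description reports mostly lower genes. Other measures leaned to lower genes. Genotypes lay apart with SG-/- lower in 3.19% of genes and with SG-/- higher in 2.84%, and 46.3% of differences were above 0. No shared threshold was used to compare these counts with the series description. The arrays also differed in their background. The mean over 1390 olfactory and vomeronasal receptor genes, taken as silent in this tissue, was 4.58, 5.63 and 5.50 in the SG+/- tumours against 4.58, 5.13 and 5.87 in the SG-/- tumours. The highest such mean was that of SG-/- replicate 3, which also had the narrowest spread of values, with an interquartile range of 2.56 against 2.85 to 3.15 in the other arrays. With 3 arrays per genotype, precision is limited throughout.

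The genes other than Cr2 showed 2 patterns. Cxcl13 was higher in every SG-/- tumour than in any SG+/- tumour and was highest in SG-/- replicate 1. Of the 8 B cell genes, 7 were highest in a single tumour, SG-/- replicate 3, while Cr2 was highest in SG+/- replicate 2 by 0.015. SG-/- replicate 3 was the highest of 6 in 26.7% of all genes, and SG-/- replicate 1 in 20%. In a whole tumour, fewer cells of a type and less RNA per cell cannot be told apart. Probe set means of Ms4a1, Cd79a, Cr2, Fcer2a and Blk lay under 6.09, the 40th percentile of all probe sets and here called the dim level, and those of Cd79b, Pax5, Cxcr5 and Cxcl13 lay above it.

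**Figure D1:**
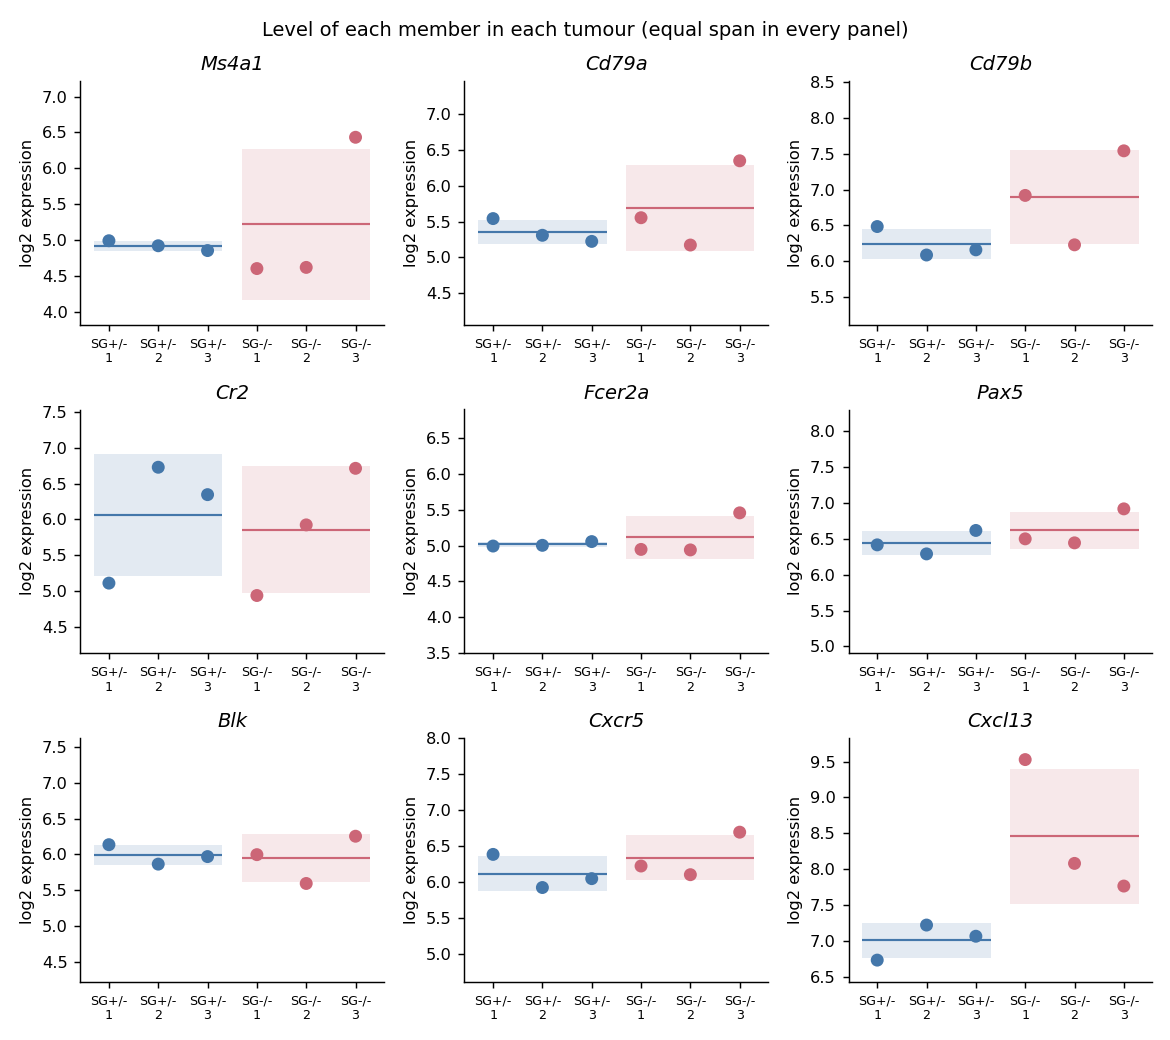
Log2 expression of the 9 genes (vertical axis, with the same span in every panel) in the 3 SG+/- tumours (blue) and the 3 SG-/- tumours (red). Points are tumours, lines are genotype means and shaded boxes are 1 SD on each side. Cxcl13 separates the genotypes, while Ms4a1, Cd79a and Cd79b stand apart in SG-/- replicate 3.

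Cxcl13 (Entrez 55985, probe set 17439367), the chemokine that draws CXCR5-bearing cells, stood at 6.73, 7.22 and 7.06 in the SG+/- tumours against 9.53, 8.08 and 7.76 in the SG-/- tumours. The lowest SG-/- tumour lay above the highest SG+/- tumour, and SG-/- replicate 1 lay 1.45 above the next tumour. The means were 7.0 ± 0.25 in SG+/- and 8.46 ± 0.94 in SG-/- (SD, n = 3 each). SG-/- exceeded SG+/- by 1.45 with a standard error of 0.44 (95% interval 0.42 to 2.49), or 2.74-fold, the 13th largest on the higher side of all genes. Genotypes did not overlap, with SG-/- higher, in 2.84% of all genes, and 3.19% of genes lay apart with SG-/- lower. Cxcl13 alone of the 9 genes lay apart in the higher direction and none did in the lower. The limma adjusted p of Cxcl13 was 1.00. Without SG-/- replicate 1 the difference was 0.92 (95% interval 0.42 to 1.42), and without SG-/- replicate 3 it was 1.80.

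Cxcr5 (Entrez 12145, probe set 17526310), the receptor for CXCL13 on B cells and follicular helper T cells, stood at 6.38, 5.92 and 6.05 in the SG+/- tumours against 6.22, 6.10 and 6.69 in the SG-/- tumours. The highest tumour was SG-/- replicate 3, by 0.31, and the other SG-/- tumours lay within the SG+/- range. Its difference was 0.22 with a standard error of 0.20 (95% interval -0.26 to 0.70). In SG-/- replicate 1, where Cxcl13 was highest, Cxcr5 was below SG+/- replicate 1 and above SG+/- replicates 2 and 3.

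Ms4a1 (Entrez 12482, probe set 17362922), which encodes the B cell surface protein CD20, was 4.99, 4.92 and 4.85 in the SG+/- tumours against 4.60, 4.62 and 6.43 in the SG-/- tumours. For Ms4a1, SG-/- replicate 3 stood 1.44 above the next tumour, whereas the other SG-/- tumours lay below all 3 SG+/- tumours. That gap ranked 55 among all 22180 genes and 15 among the genes that were highest in this tumour. The means were 4.92 ± 0.07 and 5.22 ± 1.05 (SD, n = 3 each), so that the SG-/- spread was that of 1 tumour against the others. The Ms4a1 difference was 0.30 with a standard error of 0.47 (95% interval -0.82 to 1.41). Without SG-/- replicate 3 it turned to -0.31 (95% interval -0.57 to -0.05).

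Cd79a (Entrez 12518, probe set 17475127), a signalling chain of the B cell receptor, was 5.54, 5.31 and 5.22 in the SG+/- tumours against 5.55, 5.17 and 6.35 in the SG-/- tumours. Here too SG-/- replicate 3 was highest, 0.79 above the next tumour, and the other 5 tumours lay close together. Its difference of 0.33 with a standard error of 0.29 (95% interval -0.36 to 1.02) was 0.0049 without that tumour.

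Cd79b (Entrez 15985, probe set 17270837), its partner chain, was 6.49, 6.09 and 6.16 in the SG+/- tumours against 6.92, 6.23 and 7.54 in the SG-/- tumours. The Cd79b level was highest in SG-/- replicate 3 by 0.62, SG-/- replicate 1 came next, and SG-/- replicate 2 lay within the SG+/- range. With 0.65 and a standard error of 0.32 (95% interval -0.10 to 1.41), Cd79b had the largest difference of the 8 B cell genes. Leaving out SG-/- replicate 3 gave 0.33, and leaving out SG-/- replicate 2 gave 0.99.

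Blk (Entrez 12143, probe set 17307623), a B cell kinase of the Src family that acts below the receptor, was 6.14, 5.87 and 5.97 in the SG+/- tumours against 6.00, 5.60 and 6.25 in the SG-/- tumours. The genotypes overlapped throughout, and SG-/- replicate 3 was highest by 0.12. The Blk difference was -0.04 with a standard error of 0.19 (95% interval -0.49 to 0.41).

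Pax5 (Entrez 18507, probe set 17424884), the transcription factor that keeps cells in the B lineage, was 6.42, 6.29 and 6.62 in the SG+/- tumours against 6.50, 6.44 and 6.92 in the SG-/- tumours. Pax5 was highest in SG-/- replicate 3 by 0.30, with SG+/- replicate 3 next. The Pax5 difference was 0.18 with a standard error of 0.17 (95% interval -0.23 to 0.59), and it was 0.03 without SG-/- replicate 3.

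Fcer2a (Entrez 14128, probe set 17507131), the low-affinity IgE receptor CD23 of follicular B cells, varied least of the 9 genes. It was 4.99, 5.0 and 5.06 in the SG+/- tumours against 4.95, 4.94 and 5.46 in the SG-/- tumours. Only SG-/- replicate 3 stood apart, by 0.40, and the other 5 tumours lay close together. Its difference was 0.10 with a standard error of 0.17 (95% interval -0.31 to 0.50).

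Cr2 (Entrez 12902, probe set 17231314), the complement receptor CD21 of B cells and follicular dendritic cells, followed neither pattern. It was 5.11, 6.73 and 6.35 in the SG+/- tumours against 4.94, 5.92 and 6.71 in the SG-/- tumours. The tumours lowest in Cr2, replicate 1 of each genotype, were also those with the lowest olfactory and vomeronasal receptor means, and the 3 highest in Cr2 had the 3 highest such means. The Cr2 difference was -0.20 with a standard error of 0.55 (95% interval -1.49 to 1.09). With the receptor mean as a covariate its standard error was 0.13 and its difference -0.14.

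Differences were above 0 in 7 of the 9 genes, against 46.3% of all genes. The median of the 8 B cell genes was 0.20, and -0.01 over all genes. Without SG-/- replicate 3 the median of the 8 was -0.03, with 4 of 8 above 0, and without SG-/- replicate 1 it was 0.27. For Cxcl13, each such setting gave a difference above 0, as it had to, since its genotypes do not overlap. These settings could change only the size of the Cxcl13 difference and add nothing on its direction. The limma adjusted p of the 8 B cell genes was also 1.00.

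**Figure D2:**
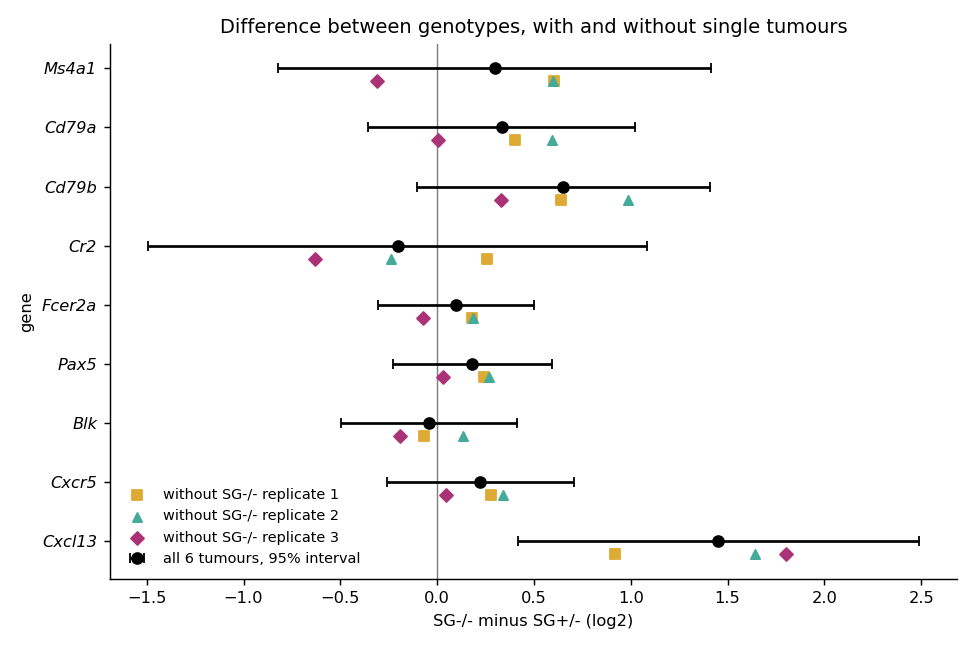
SG-/- minus SG+/- difference (horizontal axis, log2) of each gene with all 6 tumours (black point with 95% interval) and with 1 SG-/- tumour left out (coloured points). Without SG-/- replicate 3 the Ms4a1 difference is -0.31 and that of Cd79a 0.0049. The coloured points of Cxcl13 run from 0.92 to 1.80, and its sign could not turn because its genotypes do not overlap.

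The tumour in which the B cell genes were highest was also the array with the highest background. SG-/- replicate 3 was the highest of 6 in 64.5% of the 1390 receptor genes, in 54.0% of the 7319 genes under the dim level and in 13.3% of the 14861 genes above it. Of the B cell genes above the dim level, Cd79b, Pax5 and Cxcr5, all 3 were highest there. Ms4a1, Cd79a and Cd79b were highest in that tumour by at least 0.5, as were 4.23% of all genes, 19.5% of the receptor genes and 2.29% of genes above the dim level. Ms4a1 in SG-/- replicate 3 lay 1.64 above the mean of the other 5 tumours, where the median over receptor genes was 0.76 and their 95th percentile 1.67. Cd79b lay 1.17 above it, Cd79a 0.99, Cxcr5 0.56, Fcer2a and Pax5 0.47, and Blk 0.34. Cxcl13 lay 0.04 above it. SG+/- replicates 2 and 3, whose receptor means came next, were high in Cr2 but not in Ms4a1, Cd79a, Cd79b, Cxcr5 or Blk. For Fcer2a they came next after SG-/- replicate 3, at 5.0 and 5.06, close to the remaining tumours. Pax5 came next in SG+/- replicate 3 (6.62) and was lowest in SG+/- replicate 2 (6.29). In a setting added once the values were known, the receptor mean of each array was regressed out. There 7 of the 8 B cell genes were highest in SG-/- replicate 3, as were 21.0% of all genes. The gaps were then 0.45 for Ms4a1, 0.48 for Cd79a, 0.47 for Cd79b, 0.27 for Cxcr5, 0.18 for Pax5, 0.15 for Fcer2a and 0.08 for Blk. Under other scalings the 7 became 6 (quantile normalization repeated, Blk lost, with gaps of 0.04 for Fcer2a and 0.08 for Cxcr5) or 8 (arrays centred on brighter genes). The regression was fitted on the same 6 arrays, this tumour among them, so it cannot separate background from B cell transcripts. The part of the array background in the high values of this tumour was not tested.

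**Figure D3:**
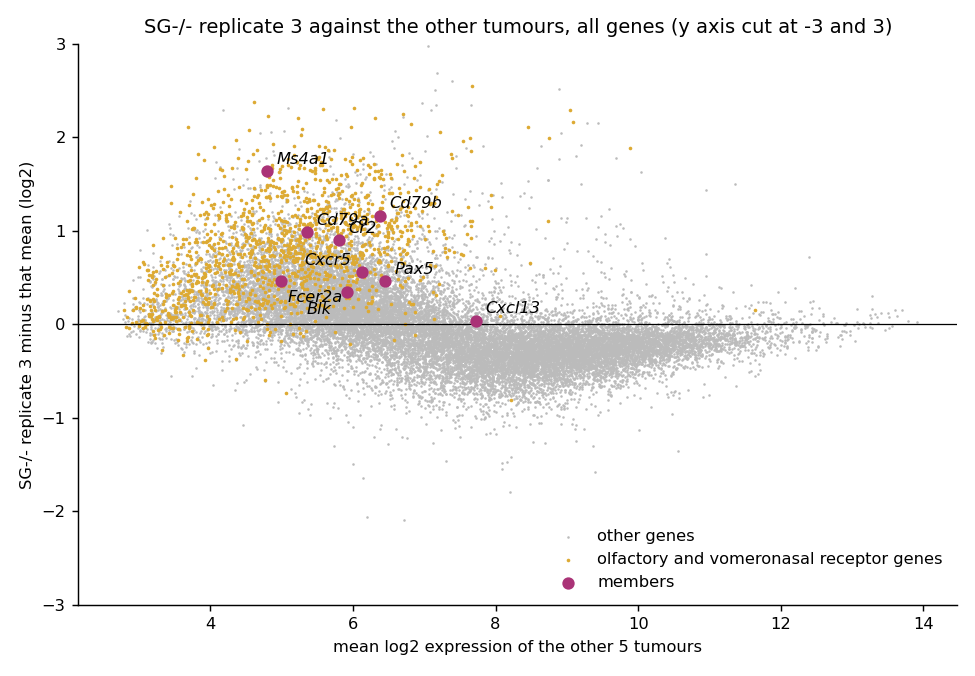
SG-/- replicate 3 minus the mean of the other 5 tumours (vertical axis, log2, shown from -3 to 3) against that mean (horizontal axis, log2) for all genes (grey), receptor genes (yellow) and the 9 described genes (purple). Low genes as a whole lie above 0 in this tumour, and Ms4a1, at 1.64, lies near the upper edge of the receptor genes.

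Other genes of the B lineage gave a mixed picture. Of 30 listed, 24 were measured and 21 were higher in SG-/-, where 46.3% of all genes were. Their median difference was 0.23, with 0 limma calls. In 13 of the 24 the highest tumour was SG-/- replicate 3 (26.7% of all genes), and in 6 it was SG-/- replicate 1 (20% of all genes). Of the 24, 15 lie above the dim level. Below that level SG-/- replicate 3 was highest in 54.0% of genes, and above it in 13.3%. After repeated quantile normalization this tumour was highest in 8 of the 24, against 16.0% of all genes. Without SG-/- replicate 3 the median was 0.13 with 18 of 24 higher. Genotypes did not overlap in 2 of the 24, both with SG-/- higher, against 2.84% of all genes in that direction. They were Cd37, a tetraspanin of mature B cells that other leukocytes share (6.75 ± 0.06 and 7.18 ± 0.12, SD, n = 3 each), and Fcrl5, an Fc receptor-like protein (5.62 ± 0.17 and 5.91 ± 0.19). Fcrl5 lies under the dim level, and its lowest SG-/- tumour (5.78) was close to its highest SG+/- tumour (5.75). Cd180, a toll-like receptor relative of B cells and macrophages, had the largest difference, 0.86 with a standard error of 0.38, and was high in SG-/- replicates 1 and 2 (7.99 and 7.76) but not in replicate 3 (6.54). Cd24a, which tumour epithelium also expresses, differed by -0.10, the most negative value on the list.

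Among these genes Bank1 and Ighm, named after their values were seen, resembled Ms4a1. Bank1, a scaffold protein of B cell receptor signalling, was 6.52, 6.83 and 6.58 in the SG+/- tumours against 6.64, 6.46 and 7.83 in the SG-/- tumours. Ighm, the heavy chain of immunoglobulin M, was 8.16, 8.80 and 8.14 in SG+/- and 8.84, 8.34 and 9.99 in SG-/- replicates 1 to 3. The gap of SG-/- replicate 3 to the next tumour was 0.99 for Bank1 and 1.16 for Ighm, and both lie above the dim level. With the receptor mean regressed out these gaps were 0.39 and 0.28. Cd22, an inhibitory receptor of B cells and a defining marker, was highest there by 0.23. Of the B lineage genes, the markers Ms4a1, Cd79a, Cd79b, Pax5, Blk and Cd22 were highest in SG-/- replicate 3, as were 26.7% of all genes and 54.0% of genes under the dim level, and Blk was not after repeated quantile normalization. Others, also named after their values were seen, were highest elsewhere. Such were the transcription factors Ebf1 in SG-/- replicate 1 and Pou2af1 in SG-/- replicate 2, and the survival factor receptor Tnfrsf13c in SG+/- replicate 2. Spib, a transcription factor gene under the dim level, was level between SG-/- replicates 1 and 3, with replicate 1 higher by 0.0035.

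**Figure D4:**
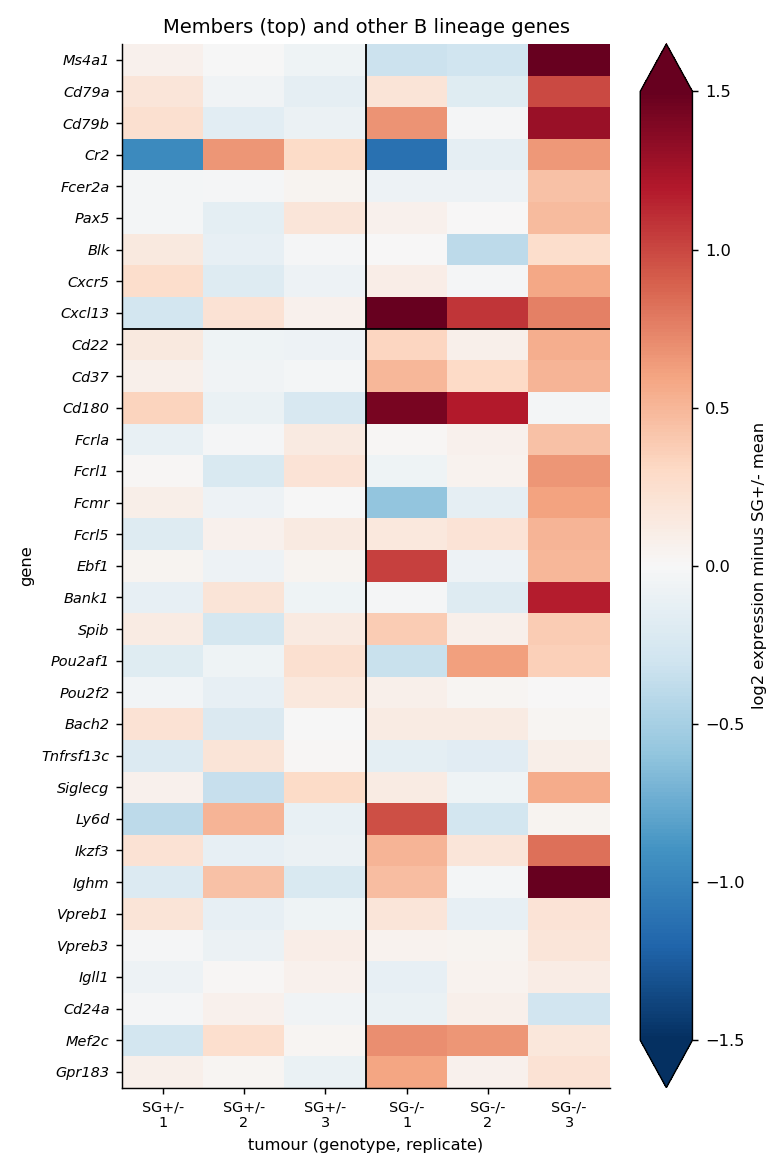
Log2 expression minus the SG+/- mean (colour, red higher and blue lower, saturated beyond 1.5 on either side) of the 9 described genes (top) and 24 other B lineage genes (below) in each tumour. The column of SG-/- replicate 3 is red for most B lineage genes, with Ighm and Bank1 the deepest of the lower block. Cd180 and Mef2c are red mainly in SG-/- replicates 1 and 2, and Cxcl13 is red in every SG-/- tumour, deepest in replicate 1.

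Many of the genes that signal below the B cell receptor are shared with other leukocytes. Of 14 measured genes of B cell receptor signalling, 9 were higher in SG-/-, where 46.3% of all genes were. Their median difference was 0.07, and SG-/- replicate 3 was highest in 0 of them. Pik3ap1, an adaptor to phosphoinositide kinase, had the largest difference (0.38) and Plcg2, the phospholipase of the pathway, the most negative (-0.22). All 14 lie above the dim level, where this tumour was highest in 13.3% of genes, so the count is read against that share. Their median in SG-/- replicate 3 was -0.19 relative to the SG+/- mean.

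Plasma cell and germinal centre genes represent later B cell stages. Of 13 measured plasma cell genes 10 were higher in SG-/-, where 46.3% of all genes were, with a median difference of 0.14. Jchain, which joins polymeric immunoglobulin, differed by 1.11 with a standard error of 0.58 and varied most in SG+/-, at 5.17, 7.62 and 5.90 in replicates 1 to 3. Xbp1, the secretory transcription factor, differed by -0.15. Of 14 measured germinal centre and follicular helper genes, 11 were higher (46.3% of all genes), with a median of 0.07. Bcl6, the germinal centre repressor, differed by -0.30. Il21r, the receptor of interleukin 21, differed by 0.36 and lay apart between the genotypes, as did 2.84% of all genes in that direction.

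Lymphotoxin and stromal genes act upstream of CXCL13 or beside it in lymphoid tissue. Over all genes 46.3% were higher in SG-/-, the share against which the counts of this paragraph are read. Of 12 measured genes for lymphotoxin and B cell survival factors, 7 were higher, with a median difference of 0.05. Ltb, which encodes lymphotoxin beta, differed by 0.23 and Ltbr, its receptor, by -0.06, both named after their values were seen. Tnf, an inflammatory cytokine, had the largest difference (0.42) and Map3k14, a kinase of the noncanonical NF-kB pathway, the most negative (-0.29). Of 13 measured genes of lymphoid stroma and high endothelial venules, 9 were higher with a median of 0.07, from -0.31 for Mfge8, a secreted bridging protein also made by mammary epithelium, to 0.71 for Cxcl12, a homing chemokine. Ccl19 and Ccl21a, the chemokines of T cell zones, were not analysed here. Of 7 measured lymphocyte homing receptors 6 were higher, with a median of 0.12. The genotypes lay apart for the integrin chains Itga4 (0.43) and Itgal (0.27), as they did in that direction for 2.84% of all genes. Cxcr4 differed by -0.17.

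Among 14 other CXC chemokines, 10 were higher in SG-/- (46.3% of all genes), with a median difference of 0.24 and 0 limma calls. Genotypes did not overlap in Cxcl9 and in Pf4, platelet factor 4, both higher in SG-/-, against 2.84% of all genes in that direction. Cxcl9, an interferon-induced attractant of T cells, was 8.11, 8.01 and 8.11 in the SG+/- tumours against 9.78, 9.52 and 8.65 in the SG-/- tumours. The order of the SG-/- tumours was that of Cxcl13, and the Cxcl9 difference was 1.24 with a standard error of 0.28. Cxcl15 had the most negative difference (-0.38).

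Macrophages and T cells are among the other immune cells of a tumour. All 15 macrophage genes had a difference above 0, as did 46.3% of all genes, from 0.0026 for Marco, a scavenger receptor named after its value was seen, to 0.82 for Mrc1, with a median of 0.31, and 12 of them were highest in SG-/- replicate 1, the tumour highest in Cxcl13. Their medians relative to the SG+/- mean were 0.72, 0.34 and -0.02 in SG-/- replicates 1 to 3. The summed log2 level of the list ran from 125.1 to 127.8 in SG+/- and from 126.6 to 137.6 in SG-/- tumours, so that the genotypes overlapped. Genotypes did not overlap in Adgre1, a surface receptor of tissue macrophages (0.53), Mrc1, the mannose receptor (0.82), and Fcgr1, a high-affinity Fc receptor (0.65), 3 of 15 where the share over all genes was 2.84%. All 14 measured T cell genes also had a difference above 0, with a median of 0.22 and a summed level of 85.1 to 87.0 in SG+/- and 87.8 to 91.5 in SG-/- tumours. Genotypes did not overlap in 6 of them, Cd3d, Cd3e, Cd3g, Cd8a, Cd8b1 and Il7r, with differences from 0.30 for Cd3d to 0.74 for Cd3g. The T cell list was highest in SG-/- replicate 1 for 8 genes and in SG-/- replicate 3 for 5. The summed level of the 8 B cell genes was 46.1 to 46.3 in SG+/- tumours, 45.7 and 45.0 in SG-/- replicates 1 and 2 and 52.4 in SG-/- replicate 3. Limma called 0 genes on each of these lists, and the part of macrophages or T cells in the Cxcl13 values was not tested.

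**Figure D5:**
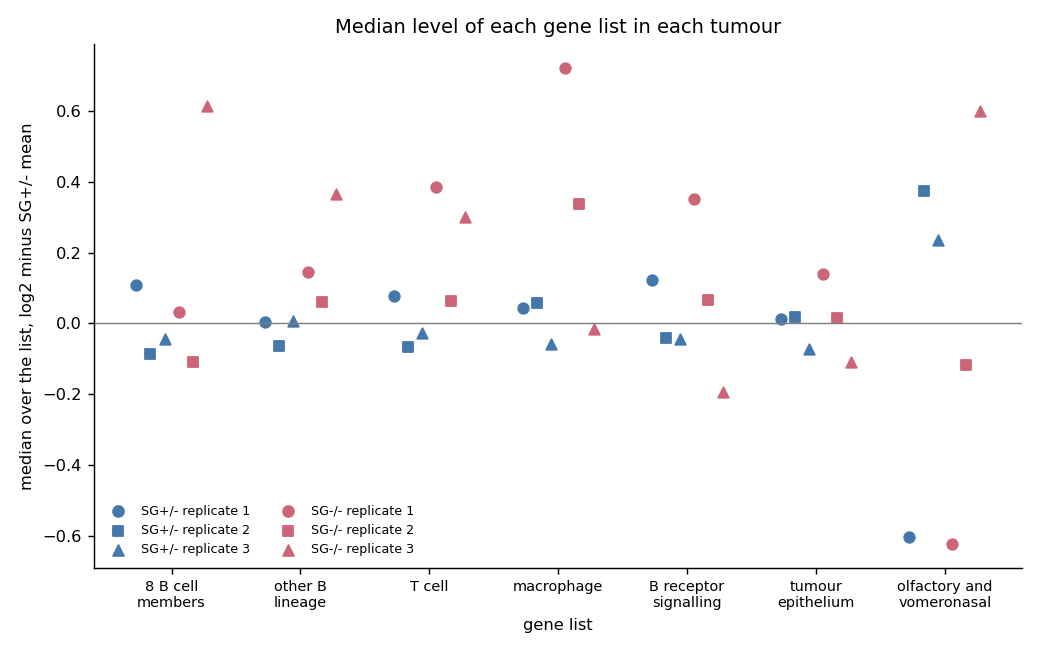
Median over each gene list (vertical axis, log2 minus the SG+/- mean) in each tumour, with colour for genotype and symbol for replicate. Medians of SG-/- replicate 3 are 0.61 for the 8 B cell genes and 0.60 for the receptor genes, and that of SG-/- replicate 1 is 0.72 for macrophage genes.

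Genes of like pattern were sought by the root mean square gap over the 6 tumours between centred log2 values, among genes above the dim level with an SD over the tumours of at least 1/2 that of the profile. Closest to Cxcl13 among 587 candidates were R3hdml (0.14), Ccl8, a chemokine for monocytes (0.22), Clec12a, a lectin receptor of myeloid cells (0.23), Il33, an alarmin (0.26), and Ogn, a small proteoglycan (0.27). R3hdml, for example, was 6.93, 7.06 and 7.33 in SG+/- and 9.58, 8.10 and 7.91 in SG-/- replicates 1 to 3. The 8 B cell genes lay farther from Cxcl13, from 0.85 for Cd79b to 1.38 for Cr2. Cd79a, Fcer2a, Pax5, Blk and Cxcr5 had SDs of 0.20 to 0.43, against 1.01 for Cxcl13. With so little variation they could not lie close to it. Closest to the mean of the 8 B cell genes among 8019 candidates were Slco5a1 (0.05), Il13 (0.06), Krtap9-1 (0.08), Lcn6 (0.08) and Shisal2a (0.08), an organic anion transporter family member, a cytokine of type 2 immunity, a keratin-associated protein, a lipocalin and a membrane protein. These 5 were picked for the smallest gaps, which also depend on how much a gene varies.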

How the data were processed

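RNA of 3 SG-/- and 3 SG+/- tumours was measured on Affymetrix whole-transcript arrays, 1 per mouse. The deposited log2 values per probe set were made by the authors with robust multi-array averaging, which is meant to correct background and equalise distributions between arrays. Differences between whole arrays remain in these values, with medians over all probe sets from 6.50 to 6.73 and interquartile ranges from 2.56 to 3.15. RMA, Affymetrix Expression Console and limma are named in the submitters' processing notes. Of 33793 probe sets, 23521 had 1 symbol. The members and gene lists were chosen with earlier results of these data known. Genotypes were compared over 22180 genes with limma 3.58.1 (R 4.3.3), two-sided, with Benjamini-Hochberg adjustment, on 6 independent arrays; the code was tested on simulated data. Nothing pairs the mice. All 9 members are named, and from each list the largest positive and negative differences above the dim level (6.09) and the genes without overlap. Genes of like pattern had a mean above that level and an SD of no less than 1/2 that of the profile, with predicted genes, olfactory and vomeronasal receptors and small RNAs left out. Plots used matplotlib 3.10.9 (Python 3.11.15).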

Additional observations from a re-analysis of the deposited data

How the results depend on the processing

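The alternatives were leaving out each tumour, repeated quantile normalization, centring on brighter genes, the receptor mean as a covariate, trended robust variances, array weights, dim genes left out, and other probe set rules. The Cxcl13 difference was above 0 in 14 of 14 settings, from 0.92 without SG-/- replicate 1 to 1.80 without SG-/- replicate 3. Its limma adjusted p ran from 0.306 to 1.00. Because its genotypes do not overlap, leaving out a tumour could not turn its sign. Trended robust variances, dim genes left out and the other probe set rules kept the difference at 1.45. Those settings therefore add nothing on its direction. The median difference of the 8 B cell genes was above 0 in 12 of 14, from -0.06 with array weights to 0.30. With single tumours left out it ran from -0.03 to 0.30. With dim genes left out, the median (0.22) covers only Cd79b, Pax5 and Cxcr5. Trended robust variances and the other probe set rules left the median at its main value of 0.20. Array weights, which gave SG-/- replicate 3 a weight of 0.20 and SG-/- replicate 2 one of 4.95, put Ms4a1 at -0.22, Cd79a at -0.04, Cd79b at 0.17 and Blk at -0.30. The number of genes with a limma adjusted p under 0.05 was 1 with the receptor mean as covariate and 0 to 1 with single tumours left out, the 1 coming without SG-/- replicate 2. The 469 genes at an unadjusted p under 0.05 became 1039 with the receptor covariate, 2569 with array weights and 1200 without SG-/- replicate 3. The cause was not tested. SG-/- replicate 3 was highest in 7 of the 8 B cell genes, in 6 after repeated quantile normalization (Blk lost, all genes 16.0%), with gaps of 1.11 for Ms4a1, 0.47 for Cd79a and 0.65 for Cd79b, and in 8 after centring on brighter genes (all genes 47.4%). No paired analysis was possible because the replicate numbers follow accession order and the labels tie no mice of the genotypes together. Signal close to the background limits Ms4a1, Cd79a, Cr2, Fcer2a and Blk, which dropped out when dim genes were left out.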

Other observations

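The platform holds 7 probe sets for Ighm. All 7 were highest in SG-/- replicate 3, with gaps to the next tumour from 0.06 to 1.16. In the probe set with the smallest gap, SG-/- replicate 1 (9.34) lay close to SG-/- replicate 3 (9.41), and 5 of the 7 have a mean above the dim level. Immunoglobulin segments share sequence with each other, so which transcripts these probe sets read is uncertain.

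Plasmacytoid dendritic cell genes were higher in SG-/- for 7 of 7 (46.3% of all genes), with a median difference of 0.20. Genotypes lay apart for Tcf4, a transcription factor that B cells also use (0.20), and Ly6c2, a surface protein shared with monocytes (1.31). Over all genes the share apart in that direction was 2.84%. Tumour epithelium was represented by 11 measured genes, all above the dim level, with a median difference of 0.02. Krt8, a luminal keratin, differed by 0.13 and lay apart, as did 2.84% of all genes in that direction. Krt19 had the largest difference (0.89) and Cldn7, a tight junction protein, the most negative (-0.26).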
